A study of Bos taurus with 18 samples.

Results

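The miR-29 family was followed in the plasma of fattened Japanese Black steers through its 3 members *bta-miR-29a*, *bta-miR-29b* and *bta-miR-29c*. The members were chosen by name, and they are 3 of the 1071 miRNAs counted in the series. Blood was drawn from the jugular veins of the same 3 steers when they were about 20, 25 and 30 months old. From every sample came 1 library of exosomal RNA (EX), which is RNA from small vesicles released by cells, and 1 library of non-exosomal free circulating RNA (FC), which is bound to plasma proteins. The 18 libraries therefore form 6 groups of 3 (EX and FC at each age), and the labels give no treatment. All steers were fattened under 1 feeding system at 1 farm.

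A miRNA is a short RNA that guides the Argonaute protein to messenger RNAs through its seed, the bases 2 to 8 from its 5′ end. The miR-29 family is best known for repressing the mRNAs of collagens and other proteins of the extracellular matrix, so that it is studied as an anti-fibrotic family in liver, heart and muscle. It also acts on DNA methyltransferase mRNAs and on insulin signalling in fat, muscle and liver. In blood its members are found in vesicles and bound to proteins, and most tissues make them.

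The mature sequences below show what the members share and where they differ, and come from the deposited count table. Capitals mark the shared stretch AGCACCA, which is the seed.
bta-miR-29a: cuAGCACCAucugaaaucgguua
bta-miR-29b: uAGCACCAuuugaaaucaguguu
bta-miR-29c: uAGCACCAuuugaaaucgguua
bta-miR-29d-3p: uAGCACCAuuugaaaucgauua
The 4th sequence is a relative that carries the same seed. With positions counted from the 5′ end of *bta-miR-29c* and its base given first, *bta-miR-29a* differed from it by U10C alone, *bta-miR-29b* by G18A, U21G, A22U and 1 extra base at its 3′ end, and *bta-miR-29d-3p* by G19A. The bovine *bta-miR-29a* is annotated with 1 more base at its 5′ end, so that its annotated bases 2 to 8 read UAGCACC and the family seed stands 1 base further in. Among the 1030 known miRNAs of the table, AGCACCA stood at bases 2 to 8 of 3, namely *bta-miR-29b*, *bta-miR-29c* and *bta-miR-29d-3p*. The 3′ end AGUGUU of *bta-miR-29b*, known in other mammals as part of a nuclear import signal, was within the last 8 bases of 2 known miRNAs, the other being *bta-miR-29e*. In the RefSeq gene table for assembly ARS-UCD2.0, MIR29A and MIR29B-1 were neighbours with 0 genes between them, and so were MIR29B-2 and MIR29C. The mature *bta-miR-29b* can therefore come from either of 2 loci, whose reads cannot be told apart.

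All 3 members were counted in all 18 libraries and passed the filter on low values (CPM, which is the count scaled to a common library total, over 5 in 3 or more libraries of the fraction), which 345 miRNAs passed in EX and 358 in FC. Library totals ran from 991354 to 2778618 counts in EX and from 3615234 to 12088735 in FC. The median total was lowest at 30 months, 1082798 in EX against 2052337 at 20 months and 2250628 at 25 months, and of 3803203 in FC against 9334446 and 9661564. They also held fewer miRNAs with a count, 258 to 296 in EX against 381 to 446 at the earlier ages, and 398 to 452 in FC against 582 to 694. The steer 3 libraries at 25 months stood apart in both fractions, with the lowest TMM factors of the 18 (0.743 in EX and 0.734 in FC), TMM being a scaling factor that corrects a library's total for a few very abundant RNAs.

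*bta-miR-29a* was by far the most abundant member. It ranked 6 among the 345 EX miRNAs and 8 among the 358 FC miRNAs by mean CPM, *bta-miR-29c* ranked 27 and 24, and *bta-miR-29b* ranked 68 and 64. The 3 members together made up 4.02% ± 0.63 (SD, n = 3), 3.96% ± 0.66 and 4.40% ± 0.28 of all counts in EX at 20, 25 and 30 months, and 3.87% ± 0.54, 4.51% ± 0.67 and 4.71% ± 0.51 in FC. The summed level at 30 months, against the mean of the earlier ages, was higher by 0.15 ± 0.03 (SE, n = 3 steers) on the log2 scale in EX and by 0.18 ± 0.10 in FC. Neither difference passed the exact two-sided permutation test (p = 0.37 and p = 0.33, adjusted p = 0.37 for both), in which each of the 27 ways to pick 1 age per steer was counted, so that the smallest p was 0.037.

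The level of *bta-miR-29a* showed no order by age. In EX it was 36444, 31671 and 27332 CPM in steers 1, 2 and 3 at 20 months, 26836, 27862 and 41669 CPM at 25 months, and 29904, 28805 and 31406 CPM at 30 months. In FC it was 34095, 32495 and 24563 CPM at 20 months, 32532, 30227 and 46179 CPM at 25 months, and 31592, 31556 and 27172 CPM at 30 months. All 6 groups overlapped, with means between 30038 ± 1305 (SD, EX at 30 months) and 36313 ± 8622 CPM (FC at 25 months). The highest library of each fraction was that of steer 3 at 25 months.

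*bta-miR-29b* was the least abundant member and was lowest in EX at 30 months. Its EX levels were 1960, 1695 and 1313 CPM in steers 1, 2 and 3 at 20 months, 1652, 1860 and 2010 CPM at 25 months, and 917, 1329 and 1341 CPM at 30 months. All 3 EX libraries of 30 months were below the 3 of 25 months, while the ranges at 20 and 30 months overlapped. For scale, 14.8% of all EX miRNAs and 18.7% of all FC miRNAs passed the test of a change between 25 and 30 months. In FC the levels were 1412, 1722 and 1230 CPM at 20 months, 1630, 1911 and 2227 CPM at 25 months, and 1296, 2072 and 1137 CPM at 30 months, and the 3 ages overlapped. In the order of the 6 group means, from 1923 ± 298 CPM (FC at 25 months) down to 1196 ± 241 CPM (EX at 30 months), each group overlapped the next.

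*bta-miR-29c* was highest at 30 months in both fractions. In EX it was 8840, 5000 and 6452 CPM at 20 months, 7192, 6218 and 3502 CPM at 25 months, and 12890, 11205 and 14150 CPM at 30 months. In FC it was 7704, 6005 and 6892 CPM at 20 months, 9219, 7369 and 4080 CPM at 25 months, and 16209, 17246 and 13041 CPM at 30 months. Every library of 30 months was above every library of the earlier ages, also across the fractions. The means at 30 months were 15499 ± 2191 CPM in FC and 12748 ± 1478 CPM in EX, which overlapped each other, and the next group in order, FC at 25 months, had 6889 ± 2603 CPM. The 4 groups of the earlier ages overlapped with each neighbour in order, and steer 3 at 25 months had the lowest level of each fraction. Within single steers, the level at 30 months was 1.79, 1.80 and 4.04 times that at 25 months in EX, and 1.76, 2.34 and 3.20 times in FC.

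**Figure D1:**
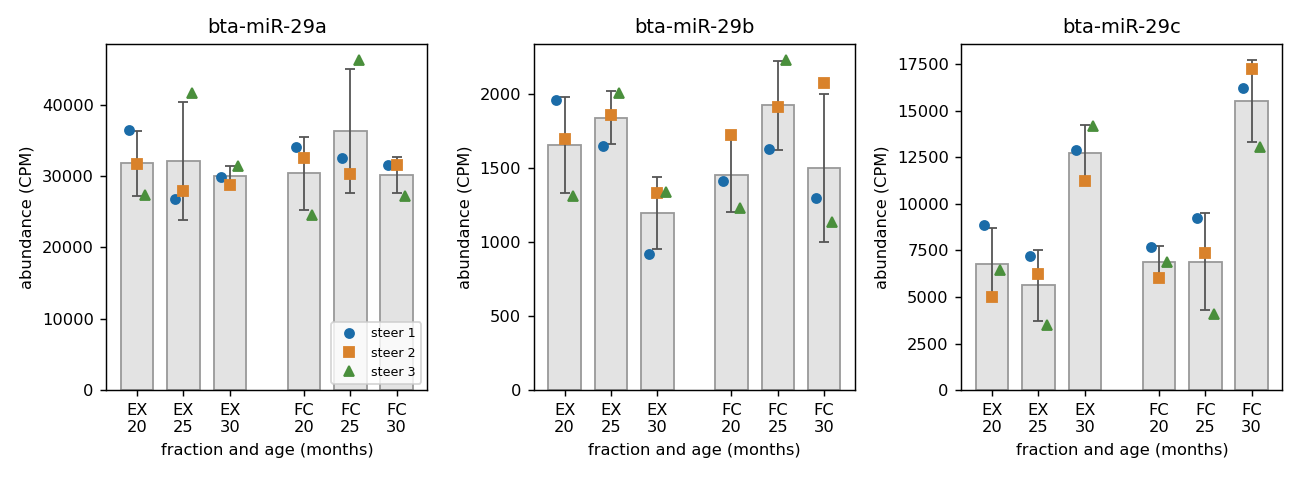
Abundance of *bta-miR-29a*, *bta-miR-29b* and *bta-miR-29c* (CPM, vertical axis from 0) by fraction and age in months. Points are single libraries coloured by steer, bars are means of 3 steers and whiskers are SD; the *bta-miR-29c* points at 30 months (11205 to 17246 CPM) lie above all earlier ones (3502 to 9219 CPM).

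Between 25 and 30 months, *bta-miR-29b* fell in EX and *bta-miR-29c* rose in FC, and no other change of a member between these ages passed the main test. *bta-miR-29c* passed in EX too under 5 alternatives to it. Changes with age were tested in edgeR (quasi-likelihood test on TMM-normalized counts, steer as a block, FDR by the method of Benjamini and Hochberg over all miRNAs of the fraction), and a change passed at FDR < 0.05. In EX, 14.8% of the 345 miRNAs tested passed between 25 and 30 months (51 miRNAs, 14 higher and 37 lower, the lower ones being 10.7% of those tested). In FC, 18.7% of 358 passed (67 miRNAs, 25 higher and 42 lower, the higher ones being 6.98% of those tested). The share of members that passed was 1 of 3 in each fraction, which is no result about the family as a whole.

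In EX, *bta-miR-29b* fell by 1.11 on the log2 scale (SE 0.26, FDR = 0.027 in edgeR), which is 2.16-fold lower at 30 than at 25 months, and it was lower in 3 of 3 steers. The median log2 fold change of all EX miRNAs was −0.51, and relative to it the change of *bta-miR-29b* was −0.60. With library totals in place of TMM that median was −0.04, the log2 fold change of *bta-miR-29b* was −0.63 and its FDR was 0.15. The call was also lost without any 1 steer, at log2 fold changes of −1.24 to −1.005, where at most 18 of the 345 miRNAs passed. The log2 fold change of *bta-miR-29a* was −0.56 (SE 0.32, edgeR FDR = 0.28), close to the median of all miRNAs. That of *bta-miR-29c* was 0.77 (SE 0.24, edgeR FDR = 0.065), 1.27 above the median of all miRNAs, and did not pass. It passed with library totals (1.22, FDR 0.034), RLE size factors (0.85), CPM over 5 in all 9 libraries (0.81), DESeq2 (0.85) and the likelihood ratio test (0.77).

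In FC, *bta-miR-29c* rose by 1.11 on the log2 scale between 25 and 30 months (SE 0.23, FDR = 0.018 in edgeR), which is 2.16-fold, in 3 of 3 steers. It stood 18th among the 358 miRNAs by p-value, and the median log2 fold change of all was −0.20. The log2 fold changes of *bta-miR-29a* (−0.43, SE 0.35) and *bta-miR-29b* (−0.56, SE 0.32) had edgeR FDR of 0.38 and 0.23. The call of *bta-miR-29c* was lost without any 1 steer (log2 fold change 1.07 to 1.25, FDR 0.075 to 0.10), where 2 pairs of libraries remained. Of all miRNAs 1 passed without steer 1, 54 without steer 2 and 1 without steer 3. The call was also lost with the counts as deposited (1.08, FDR 0.058), in which the rows of rarer miRNAs are shifted in 4 FC libraries and 10 of 372 miRNAs passed.

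Between 20 and 30 months, only *bta-miR-29c* passed among the members, and only in FC, by the main test. The share of miRNAs that passed was 14.2% in EX and 7.26% in FC, where 3.07% were higher. In FC, *bta-miR-29c* rose by 1.18 on the log2 scale (SE 0.23, FDR = 0.027 in edgeR, 2.26-fold, 3 of 3 steers) and stood 6th by p-value. The call was lost without steer 1 (1.13, FDR 0.12), without steer 2 (1.07, FDR 0.22) and with the counts as deposited (1.15, FDR 0.065), where 1 of 357, 5 of 358 and 2 of 372 miRNAs passed. In EX, the log2 fold change was 0.61 (SE 0.23, edgeR FDR = 0.12) for *bta-miR-29c*, −0.84 (SE 0.26, edgeR FDR = 0.077) for *bta-miR-29b* and −0.45 (SE 0.32, edgeR FDR = 0.41) for *bta-miR-29a*, against a median of −0.64 over all EX miRNAs. *bta-miR-29b* passed there with CPM over 5 in all 9 libraries and with no replicate block, and *bta-miR-29c* with DESeq2.

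Between 20 and 25 months no member passed. The log2 fold changes were between −0.16 (*bta-miR-29c*) and 0.27 (*bta-miR-29b*) in EX and between 0.07 (*bta-miR-29c*) and 0.58 (*bta-miR-29b*) in FC. These ages hardly differed across the table, with 0.29% of the miRNAs passing in EX (1 of 345) and 0% in FC (0 of 358 in edgeR, with 13 at an unadjusted p < 0.05).

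**Figure D2:**
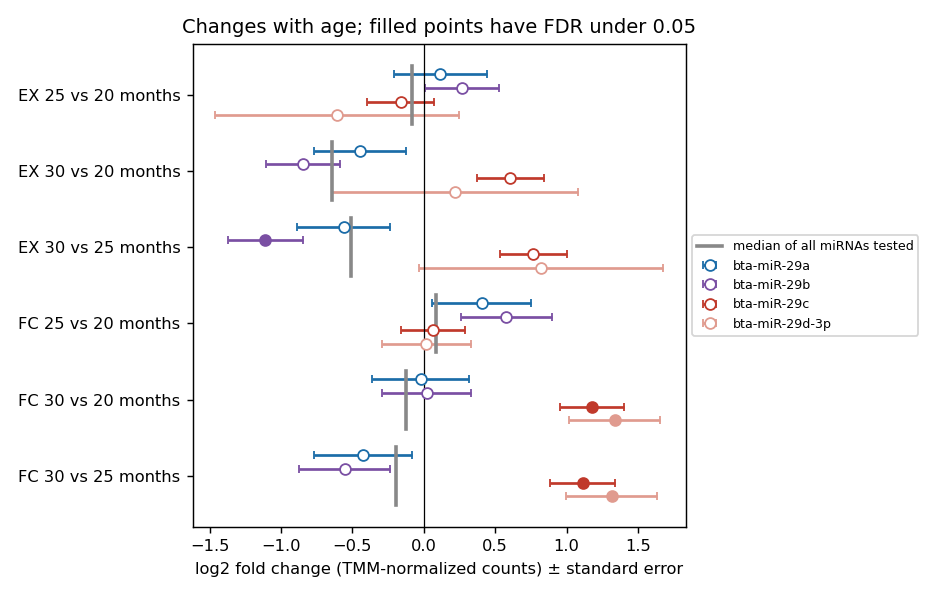
Log2 fold change with age (horizontal axis, TMM-normalized counts, whiskers SE) of the 3 members and *bta-miR-29d-3p* in 6 comparisons. Filled points passed at FDR < 0.05 and grey bars are the median of all miRNAs tested; in each comparison with 30 months *bta-miR-29c* lies to the right of that median by 1.25 to 1.31 and *bta-miR-29a* lies between −0.23 and 0.20 of it.

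The members' ratios within a library do not depend on how libraries are scaled. *bta-miR-29c* amounted to 24.3%, 15.8% and 23.6% of *bta-miR-29a* in the EX libraries of steers 1, 2 and 3 at 20 months, to 26.8%, 22.3% and 8.40% at 25 months, and to 43.1%, 38.9% and 45.1% at 30 months. In FC it amounted to 22.6%, 18.5% and 28.1% at 20 months, to 28.3%, 24.4% and 8.84% at 25 months, and to 51.3%, 54.7% and 48.0% at 30 months. No library of 30 months overlapped one of an earlier age. The ratio at 30 months was 2.24-fold the mean of the earlier ages in EX (log2 1.16, SE 0.27, n = 3) and 2.52-fold in FC (log2 1.33, SE 0.17). In both fractions the exact permutation test gave p = 0.037, the smallest the 27 ways allow, and 0.044 after adjustment over the 6 ratios tested. The 6 are not independent, as any 2 ratios of a fraction fix the other, and EX and FC share plasma samples. The adjusted p was this low because most of the 6 lay at the smallest p. Ratios of other miRNAs were not tested.

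The ratio of *bta-miR-29c* to *bta-miR-29b* also rose, from 4.12 ± 1.04 (SD, n = 3) at 20 months and 3.15 ± 1.32 at 25 months to 11.01 ± 2.84 at 30 months in EX. In FC it went from 4.85 ± 1.18 and 3.78 ± 1.91 to 10.8 ± 2.2. The rise against the mean of the earlier ages was 3.13-fold in EX (log2 1.65, SE 0.12) and 2.64-fold in FC (log2 1.40, SE 0.22), again with an exact permutation p = 0.037 and an adjusted p = 0.044. The ratio of *bta-miR-29b* to *bta-miR-29a* fell in EX by 0.48 on the log2 scale (SE 0.22, lower in 3 of 3 steers, exact permutation p = 0.037, adjusted p = 0.044), with steer 1 lower by 0.91 and steer 3 by 0.17, and it was −0.27 without steer 1. In FC that ratio differed by −0.07 (SE 0.13, exact permutation p = 0.59), and the 3 steers did not go one way.

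As shares of the family, *bta-miR-29c* went from 16.7% ± 3.2 (SD, n = 3) and 15.0% ± 6.7 at 20 and 25 months to 28.9% ± 1.6 at 30 months in EX, and from 17.9% ± 3.1 and 15.9% ± 7.1 to 32.8% ± 1.2 in FC. *bta-miR-29a* went from 79.2% ± 2.9 and 80.4% ± 7.0 to 68.4% ± 1.4 in EX, and from 78.3% ± 2.9 and 79.8% ± 7.1 to 64.0% ± 1.9 in FC. *bta-miR-29b* held between 2.72% and 4.69% of the family in the group means. The difference was as clear in direction without steer 3, whose ratios at 25 months were low: the log2 rise of *bta-miR-29c* over *bta-miR-29a* was 0.90 in EX and 1.19 in FC, where 2 steers cannot give a p below 0.11.

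**Figure D3:**
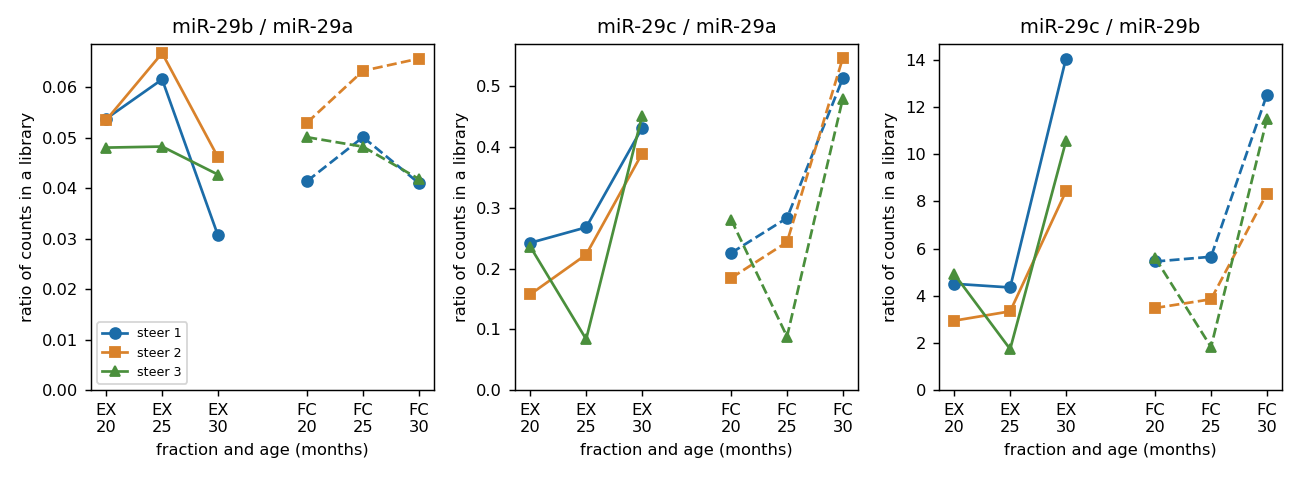
Ratios of counts between members within a library (vertical axes from 0) by fraction and age in months; each line joins the libraries of 1 steer, solid in EX and dashed in FC. The ratio of *bta-miR-29c* to *bta-miR-29a* lies between 0.389 and 0.547 at 30 months and between 0.0840 and 0.283 before.

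Of the members *bta-miR-29b* had the fewest counts, and fewest at 30 months. Its counts in EX were a median of 66.3 times the 10th percentile of the library's counts over 1 at 30 months, against 575 and 350 times at 20 and 25 months. This multiple was lower at 30 months for the other members too. For *bta-miR-29c* it was 719, against 2097 and 1219. For *bta-miR-29a* it was 1597, against 10685 and 5491. That 10th percentile was itself 21.3 to 27.5 counts in EX at 30 months and 6.62 to 11 before. The reads carry no molecular identifiers, so that the number of molecules behind a count is unknown and the part of this in the fall of *bta-miR-29b* was not tested.

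The members stood at near levels in the EX and FC libraries of a sample. Over the 9 libraries of a fraction, the mean was 31325 ± 4871 CPM (SD) in EX and 32268 ± 5994 in FC for *bta-miR-29a*, 1564 ± 363 and 1626 ± 387 for *bta-miR-29b*, and 8383 ± 3655 and 9752 ± 4653 for *bta-miR-29c*. In the edgeR fit of all 18 libraries with the plasma sample as a block, no member passed at 20 or 25 months, when 9.39% and 6.97% of the 330 miRNAs common to both fractions did. At 30 months, when 22.1% passed and 17.3% were lower in EX, all 3 members were lower in EX, by 0.26 for *bta-miR-29a* (SE 0.08, edgeR FDR = 0.049), by 0.56 for *bta-miR-29b* (SE 0.18, edgeR FDR = 0.049) and by 0.54 for *bta-miR-29c* (SE 0.14, edgeR FDR = 0.026).

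The size of these differences at 30 months changed with the scaling, and so did some of the calls. *bta-miR-29c* kept its call with RLE size factors and with DESeq2, but not with library totals. The median log2 difference of all 330 miRNAs was −0.56, so that relative to it *bta-miR-29a* was at 0.30, *bta-miR-29b* at 0.00 and *bta-miR-29c* at 0.02. With library totals the log2 differences were −0.00 for *bta-miR-29a* (FDR 0.99), −0.30 for *bta-miR-29b* (FDR 0.23) and −0.28 for *bta-miR-29c* (FDR 0.16). The call was lost for each member without steer 1 and without steer 2, and without steer 3 the differences were −0.59, −1.05 and −0.96. The change from 25 to 30 months did not pass a test of its difference between the fractions for any member, where 6.97% of the miRNAs passed. The interval of 2 SE around the EX minus FC difference in log2 change ran from −0.30 to 0.17 for *bta-miR-29a*, from −0.98 to 0.01 for *bta-miR-29b* and from −0.65 to 0.16 for *bta-miR-29c*. Without steer 3 that difference was −1.08 for *bta-miR-29b* and passed (edgeR FDR = 0.048).

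The ratios between members differed slightly between the fractions. *bta-miR-29c* relative to *bta-miR-29a* was lower in EX than in FC by 0.17 on the log2 scale (SE 0.06), in 8 of 9 plasma samples (exact sign-flip permutation p = 0.020, adjusted p = 0.047 over 3 ratios). Relative to *bta-miR-29b* it was lower by 0.14 (SE 0.05) in 7 of 9 samples (exact permutation p = 0.031, adjusted p = 0.047), with means of −0.23, −0.22 and 0.02 at 20, 25 and 30 months. The ratio of *bta-miR-29b* to *bta-miR-29a* differed by −0.02 (SE 0.10, exact permutation p = 0.78), a mean over 0.11 at 20 months, 0.13 at 25 months and −0.30 at 30 months, and the difference between ages was not tested for these ratios. The 9 samples come from 3 steers and are not independent, and without steer 2 the first of these differences was −0.11 (exact permutation p = 0.16).

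The relatives were far rarer. *bta-miR-29d-3p*, which differs from *bta-miR-29c* at 1 base, was at 49.2 ± 17.0 (SD), 31.1 ± 12.2 and 77.8 ± 37.5 CPM in EX at 20, 25 and 30 months, and at 41.8 ± 4.1, 39.7 ± 12.7 and 107 ± 28 CPM in FC. In FC it rose by 1.32 on the log2 scale between 25 and 30 months (SE 0.32, edgeR FDR = 0.026) and by 1.34 between 20 and 30 months (SE 0.32, edgeR FDR = 0.041). In EX it did not pass (log2 fold change 0.82, SE 0.85, edgeR FDR = 0.60, between 25 and 30 months). It amounted to 0.320% to 0.836% of *bta-miR-29c* in EX and to 0.489% to 0.792% in FC, shares at which reads of *bta-miR-29c* with a changed base cannot be told apart from it. *bta-miR-29d-5p*, the other arm of that hairpin, was at group means of 3.69 to 12.7 CPM, and *bta-miR-29e*, whose seed differs by C6U, was at 2.03 to 3.93 CPM and did not pass the filter.

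The deposited counts are not whole numbers for 44 of the 54 values of the members, as would arise where reads that fit more than 1 hairpin are shared out. Whether this is the reason, and the part of shared reads in each member, was not tested.

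*bta-miR-29a* and *bta-miR-29b* varied together over the libraries. Over the 18 libraries, Pearson's r of log2 TMM CPM was 0.84 between *bta-miR-29a* and *bta-miR-29b*, each being the miRNA most like the other on that scale among the 330 common ones. Within a fraction *bta-miR-30e-5p* was as near to *bta-miR-29a* (r = 0.83 in EX and 0.87 in FC, against 0.82 and 0.87 for *bta-miR-29b*), and in EX *bta-miR-2285bf* (0.90) and *bta-miR-374a* (0.88) were nearer to *bta-miR-29b* than *bta-miR-29a* was. Over the 18 libraries r was −0.34 between *bta-miR-29a* and *bta-miR-29c* and −0.40 between *bta-miR-29b* and *bta-miR-29c*. Within EX (9 libraries) these were −0.52 and −0.75, and within FC (9 libraries) −0.34 and −0.26. The 18 points share 3 steers, 9 plasma samples and the scaling factors of their libraries. On the CPM scale the same values were 0.58, −0.40 and −0.50, and *bta-miR-29b* was nearer to *bta-miR-2285bf* (0.73) and *bta-miR-374a* (0.69) than to *bta-miR-29a*. Without the 2 libraries of steer 3 at 25 months, which lie farthest from the median of *bta-miR-29a*, its r was 0.72 with *bta-miR-29b* and 0.05 with *bta-miR-29c*. Both of these settings were chosen after seeing the data.

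**Figure D4:**
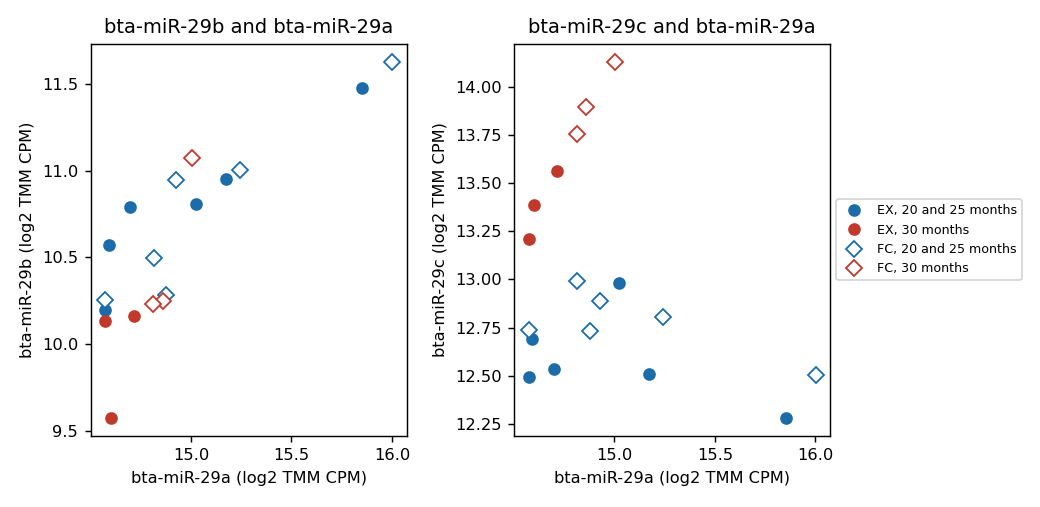
*bta-miR-29b* (left) and *bta-miR-29c* (right) against *bta-miR-29a* in 18 libraries, all as log2 TMM CPM; filled circles are EX, open diamonds FC, and red marks 30 months. The left panel has r = 0.84; in the right panel (r = −0.34) the 6 libraries of 30 months lie above the 12 earlier ones.

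Outside the family, the miRNAs most like *bta-miR-29c* were *bta-miR-152* (r = 0.89), *bta-miR-141* (r = 0.89), of the epithelial miR-200 family, and *bta-miR-192* (r = 0.83), known from gut, liver and kidney. The relative *bta-miR-29d-3p* stood 3rd in that order with r = 0.84. As a description of miRNAs picked for this likeness, *bta-miR-152* was at 860 ± 178 (SD), 727 ± 342 and 1956 ± 214 CPM in EX at 20, 25 and 30 months, and *bta-miR-192* at 34212 ± 7183, 35351 ± 13849 and 76170 ± 11124 CPM. Between 25 and 30 months *bta-miR-152* passed in both fractions (edgeR FDR = 0.041 in EX and 0.026 in FC) and *bta-miR-141* in FC (0.028) but not in EX (0.10). *bta-miR-192* did not pass in either fraction in that comparison (0.14 in EX and 0.059 in FC) or between 20 and 30 months (0.10 and 0.054). The miRNAs most like *bta-miR-29b* were a candidate miRNA of the study at group means under 11 CPM (r = 0.81), *bta-miR-2285bf* (r = 0.80) and *bta-miR-374a* (r = 0.79), whose EX mean went from 719 ± 203 CPM at 25 months to 103 ± 42 at 30 months. Those most like *bta-miR-29a* were *bta-miR-30e-5p*, the same candidate miRNA and *bta-miR-142-5p*, a miRNA of blood cells, all with r between 0.75 and 0.76. On the CPM scale these 3 had r between 0.43 and 0.52, while those of *bta-miR-29c* were between 0.87 and 0.93.

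On the CPM scale *bta-miR-29a* was among the least variable miRNAs of plasma. The SD of log2(CPM + 1) over the 18 libraries was 0.22 for *bta-miR-29a*, the 2nd lowest of 330, 0.35 for *bta-miR-29b* (12th) and 0.66 for *bta-miR-29c* (92nd), against a median of 1.06. For *bta-miR-93*, the control miRNA of the qPCR in the study, it was 0.43 (34th). The order depended on the scaling. On the TMM scale, chosen after seeing the data, the SD was 0.41 for *bta-miR-29a* (33rd), 0.52 for *bta-miR-29b* (57th), 0.54 for *bta-miR-29c* (65th) and 0.33 for *bta-miR-93* (11th).

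**Figure D5:**
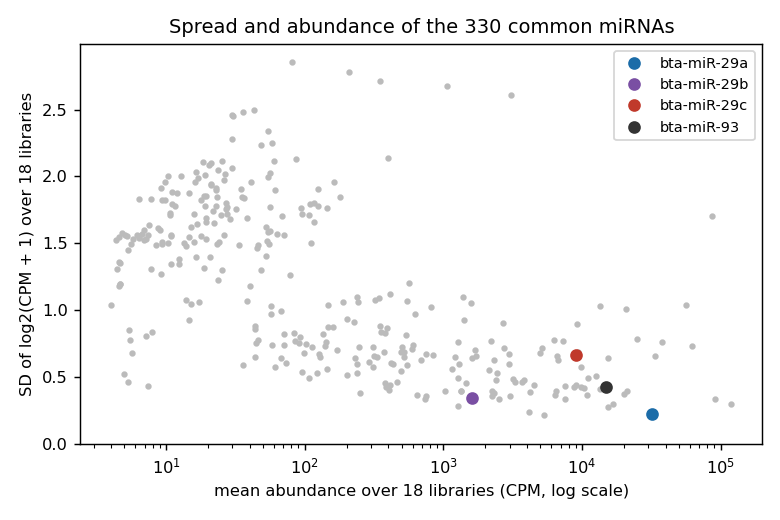
SD of log2(CPM + 1) over 18 libraries (vertical axis) against mean CPM (log axis) of the 330 miRNAs common to EX and FC, one point each. *bta-miR-29a* (SD 0.22) lies at the lower edge and *bta-miR-29c* (SD 0.66) among the other miRNAs of like abundance.

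Other miRNAs known for a part in fibrosis and the matrix were taken as a list of 11, all of which passed the filter. Between 25 and 30 months, 0 of them rose and 2 fell in EX, and 1 rose and 2 fell in FC, at backgrounds of 14.8% and 18.7%. The median log2 fold change of the list was −0.16 in EX, against −0.51 over all miRNAs, and −0.18 in FC, against −0.20. Its summed level was 91402 to 146367 CPM at 25 months and 144309 to 220949 CPM at 30 months in EX. In FC it was 117575 to 199567 and 198583 to 278324 CPM, so that the sums were mostly higher at 30 months, with a small overlap in each fraction. *bta-miR-30c*, which targets the mRNA of connective tissue growth factor, fell by 2.98 in EX (SE 0.37, edgeR FDR = 0.0030) and by 1.99 in FC (SE 0.39, edgeR FDR = 0.015). *bta-miR-26a* fell by 1.77 in EX (SE 0.39, edgeR FDR = 0.021) and by 1.50 in FC (SE 0.40, edgeR FDR = 0.034). *bta-miR-200a*, which guards the epithelial state, rose by 0.97 in FC (SE 0.26, edgeR FDR = 0.035). *bta-miR-21-5p*, a pro-fibrotic miRNA, had log2 fold changes of −0.16 in EX and 0.10 in FC with edgeR FDR of 0.79 and 0.77.

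The lymphocyte markers moved over the same ages. The 2 lymphocyte miRNAs, *bta-miR-150* and *bta-miR-342*, both fell between 25 and 30 months in both fractions, by 4.06 and 2.31 on the log2 scale in EX and by 3.38 and 1.81 in FC (edgeR FDR between 0.0045 and 0.035). Over all miRNAs tested, 10.7% fell in EX and 11.7% in FC between these ages. Their summed level was 155917 to 202839 CPM at 20 months, 113415 to 324692 CPM at 25 months and 13723 to 27464 CPM at 30 months in EX, and 79355 to 100449, 80690 to 230827 and 14651 to 26926 CPM in FC, with neither at 0 in any library. The highest sum of each fraction was in steer 3 at 25 months, the library with the highest *bta-miR-29a* and the lowest *bta-miR-29c*. Of the 3 red cell miRNAs, 1 (*bta-miR-451*) fell in EX and 0 passed in FC, and their sums overlapped between ages (28558 to 92244 CPM at 25 months and 34776 to 54074 at 30 months in EX, 18948 to 46802 and 21521 to 34381 in FC). Of the 2 hepatocyte miRNAs, *bta-miR-122* did not pass in either fraction, and *bta-miR-885*, at 0 in 4 of the 18 libraries, fell in FC. Their sums overlapped too (12268 to 73054 CPM at 25 months and 35472 to 108600 at 30 months in EX, 18960 to 75397 and 23010 to 97366 in FC), and the lists for myeloid cells, endothelium and platelets, and muscle had no miRNA that passed between these ages. Between 20 and 30 months *bta-miR-126-3p*, of endothelium and platelets, rose in EX (log2 fold change 1.36, SE 0.28, edgeR FDR = 0.015), as did 3.77% of all miRNAs tested there. The summed level of its list was 6144 to 13210 CPM at 20 months and 18148 to 30970 CPM at 30 months in EX. *bta-miR-126-3p* did not pass in FC (0.72, edgeR FDR = 0.37), nor did *bta-miR-126-5p* in EX (0.78, edgeR FDR = 0.21). Between the same ages *bta-miR-150*, *bta-miR-342* and *bta-miR-451* fell in EX, where 10.4% of all miRNAs did. *bta-miR-150* and *bta-miR-885* fell in FC, where 4.19% did. The part of such cells in the changes of the members was not tested, and in plasma fewer cells of a type and less release per cell cannot be told apart.

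Other groups of miRNAs that share a seed give a scale for the spread within the family. Taking *bta-miR-29a* by its aligned seed, the 4 miRNAs with the seed AGCACCA spanned 1.93 in log2 fold change between 25 and 30 months in EX, from *bta-miR-29b* to *bta-miR-29d-3p*, which ranked 10 of 14 seed groups with 3 or more tested members (median 2.12). The upper end, *bta-miR-29d-3p*, did not pass (SE 0.85) and had mean counts of 68.6 and 116 in the EX libraries at 25 and 30 months. In FC they spanned 1.87, ranking 7 of 16 (median 1.71). The widest in FC were the group of *bta-miR-20b* and *bta-miR-93* (3.17) and the miR-30 group (2.63). Those in EX were a group with *bta-miR-2284ab* and the miR-181 group, whose extremes rest on miRNAs with few counts.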

How the data were processed

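Small RNA of plasma was sequenced in 18 libraries (single-ended reads, Illumina, per the labels). The authors trimmed the reads (cutadapt 5.0 and Trimmomatic 0.39 are named in the submitters' processing notes), mapped them to a Japanese Black cattle genome and counted mature miRNAs with miRDeep2. They deposited expected counts, in which reads that fit several hairpins may be shared, and CPM values of all libraries. No per-sample column was left out (0 unused).

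Here the expected counts were set to the row order of the CPM values, since rows of rarer miRNAs are shifted in 4 FC libraries (tolerance 0.001 relative or 0.02 counts). No miR-29 row was affected. They were filtered (CPM over 5 in at least 3 of 9 libraries), rounded and scaled by TMM. Quasi-likelihood fits in edgeR 4.0.16 (R 4.3.3) took age plus a steer block within each fraction, and over the 330 common miRNAs of all 18 libraries a block for the plasma sample, for EX against FC and for the difference between fractions. SE is the log2 fold change divided by the root of the F statistic. Ratios and sums were tested by exact permutation (27 choices of 1 age per steer, or 512 sign flips over 9 plasma samples). Python 3.11.15, numpy 2.4.6, pandas 2.3.3, scipy 1.17.1 and matplotlib 3.10.9 were used, with DESeq2 1.42.0 for an alternative. Fits were also run on simulated data with larger changes than those of the members and no effect of steer. Those runs give no error rate for changes of the members' size.

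The steer numbers pair the samples because the study sampled its 3 animals at every age and names each library by the animal's number. Every count over steers and each permutation within steers rests on this. The mean correlation of deviations from group means was 0.02 in EX and 0.08 in FC for the same steer, and −0.01 and −0.04 for other steers. Deviations cancel out within a group, so that the values for other steers nearly follow from those for the same steer. Correlations this small give the pairing no support of their own. Libraries of a group were no copies of one another (18 pairs, smallest chi-square per degree of freedom 196). SEs and intervals hold the spread between libraries as well as counting error. Reads without molecular identifiers are not independent molecules.

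The named miRNAs are the 3 members, the other miR-29 names of the table, for each member the 3 outside miRNAs of highest Pearson r (prior count 2) over 18 libraries, the fixed lists, the qPCR control and the widest seed groups. The members and lists were chosen with earlier results of these data known. The read mapping, qPCR, carcass traits and target prediction were not analysed here. Gene neighbours come from RefSeq, ARS-UCD2.0, whose coordinates were not used, as the authors' genome is another build.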

Additional observations from a re-analysis of the deposited data

How the results depend on the processing

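Of 360 alternatives to 41 results, 296 kept their side of the threshold, 55 no longer passed and 9 passed newly. No value that passed changed its sign, and 23 values that passed in neither setting did. All values here are log2 differences. In EX between 25 and 30 months, *bta-miR-29b* was −0.63 with library totals, and from −1.24 to −1.005 without 1 steer, where it did not pass. *bta-miR-29c* passed there with RLE size factors (0.85), library totals (1.22), CPM over 5 in all 9 libraries (0.81), DESeq2 (0.85) and the likelihood ratio test (0.77). In EX between 20 and 30 months, *bta-miR-29b* passed with CPM over 5 in all 9 libraries (−0.77) and with no replicate block (−0.82), and *bta-miR-29c* with DESeq2 (0.71). In FC, *bta-miR-29c* did not pass with the counts as deposited (1.08 against 25 months, 1.15 against 20 months). Without 1 steer it was 1.07 to 1.25 against 25 months and 1.07 to 1.27 against 20 months.

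Between EX and FC at 30 months, *bta-miR-29a* no longer passed with RLE size factors (−0.19), library totals (−0.00073), DESeq2 (−0.19), the counts as deposited (−0.22), steer as the replicate block in place of the plasma pairing (−0.27) and no replicate block (−0.26). *bta-miR-29b* no longer passed with RLE size factors (−0.49), library totals (−0.30), steer as the replicate block (−0.59) and no replicate block (−0.59), nor did *bta-miR-29c* with library totals (−0.28), steer as the replicate block (−0.53) and no replicate block (−0.54). Without 1 steer the differences were −0.59 to −0.26, −1.05 to −0.50 and −0.96 to −0.51. The difference between fractions in the change of *bta-miR-29b* was −1.08 to −0.48 without 1 steer. The block and the pairing changed no other call.

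The ratios could not pass with 25 months alone as the earlier age (smallest exact permutation p = 0.25) or without 1 steer (0.11). With 25 months alone they were −0.57, 1.30 and 1.87 for *bta-miR-29b* to *bta-miR-29a*, *bta-miR-29c* to *bta-miR-29a* and *bta-miR-29c* to *bta-miR-29b* in EX, and 1.49 and 1.63 for the last 2 in FC. Without 1 steer the ranges were −0.64 to −0.27, 0.90 to 1.36 and 1.54 to 1.76 in EX and 1.19 to 1.49 and 1.18 to 1.51 in FC. Between EX and FC, the ratio of *bta-miR-29c* to *bta-miR-29a* was −0.21 to −0.11 without 1 steer and that to *bta-miR-29b* was −0.15 to −0.14. The causes of these changes were not tested. Among the members, counts were lowest for *bta-miR-29b*. The number of steers sets the smallest p of the exact permutation tests by age.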
